A study of Rattus norvegicus with 48 samples.

Results

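Small RNA sequencing of laser-captured rat nephron segments gave values for 188 mature microRNAs (miRNAs), and 5 of them are described here: rno-miR-22-3p, rno-miR-191a-5p, rno-miR-26a-5p and both arms of miR-26b, rno-miR-26b-5p and rno-miR-26b-3p. The prefix, which stands for the rat, is left out below. They were chosen by name, from their levels and shares across the segments, as abundant miRNAs and their family. The label held for 3 of the 5. miR-22-3p, miR-191a-5p and miR-26a-5p ranked between 2 and 9 of 188 in every library, whereas miR-26b-5p ranked between 60 and 121 and miR-26b-3p between 91 and 179.

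The tissue came from 3 untreated male Sprague-Dawley rats aged 6 months, with no treatment or genetic change in any group. Proximal tubule was picked by staining for glutathione S-transferase, thick ascending limb of Henle's loop by Tamm-Horsfall protein and collecting duct by aquaporin-2, all with fluorescent antibodies. Glomeruli were picked on sections with a histochemical stain instead, and for them staining and segment cannot be told apart. The table holds 11 libraries: collecting duct, proximal tubule and thick ascending limb of rats 1, 2 and 3, and glomerulus of rats 1 and 3. A further glomerulus library labelled rat 3, which the submitters marked as removed, was not analysed here. Since rat 3 is thus named on 2 glomerulus libraries and rat 2 on none, the rat of the glomerulus library called rat 3 below is uncertain; levels and shares by segment do not use it, but the limma fit, which has the rat as a term, does.

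A miRNA guides an Argonaute protein to messenger RNAs that pair with its seed, bases 2 to 8, and lowers their translation or stability. Each hairpin precursor can give a 5p and a 3p strand, of which usually one is kept. miR-22 is found in many tissues and is best known from heart and skeletal muscle. miR-191 is expressed in most cell types and has often been used as a reference in PCR assays, and it is made from the same transcript as miR-425. The miR-26 family slows cell proliferation in many cell types and targets the methyltransferase gene Ezh2; its genes lie in introns of the Ctdsp phosphatase genes.

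The mature sequences show which members share a seed. They are given 5′ to 3′ from the RefSeq annotation of the GRCr8 build, with the seed in capitals, and all 5 names matched.
miR-22-3p: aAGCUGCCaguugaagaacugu
miR-191a-5p: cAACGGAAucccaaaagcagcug
miR-26a-5p: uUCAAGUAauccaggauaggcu
miR-26b-5p: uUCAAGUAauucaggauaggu
miR-26b-3p: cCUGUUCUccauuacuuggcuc

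miR-26a-5p and miR-26b-5p share the seed UCAAGUA, and no other miRNA of the table that matched RefSeq carried it. Counted from the 5′ end, the 22 bases of miR-26a-5p and the 21 of miR-26b-5p were identical over their first 10, and 19 positions were identical in all. The substitutions were C11U and C21U, miR-26a-5p first. Reads of the pair differ so little that the assignment of a read with an error or a trimmed end was uncertain, and how such reads were assigned is not given in the sources used here. The seeds of miR-22-3p, miR-191a-5p and miR-26b-3p were each held by no other miRNA among the 172 of 188 that matched. Of 130 distinct seeds, 108 were held by 1 miRNA.

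The hairpins lie on 3 chromosomes of GRCr8, all on the plus strand. Mir22 is at chr10:60805331-60805425 and overlapped no other annotated gene. Mir191 is at chr8:118142627-118142717 within Dalrd3, with 366 bases between it and Mir425 in the same gene, and the antisense hairpin Mir3555, source of miR-191b, overlaps it. Mir26a is at chr8:127633048-127633137 within Ctdspl. Mir26b is at chr9:83425709-83425793 within Ctdsp1. The Mir26b hairpin is shown whole because both of its arms are members, the 5p and the 3p arm in capitals in that order.
Mir26b: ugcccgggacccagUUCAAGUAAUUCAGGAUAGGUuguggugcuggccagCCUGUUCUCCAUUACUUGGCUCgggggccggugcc

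Levels below are normalized values, made by the authors with the TMM method (trimmed mean of M-values), averaged over the 4 sequencing runs of a library. The spacing of low values gave an estimate of 147996 reads for the 188 miRNAs in the glomerulus of rat 3, and of 218882 to 1296993 in the other libraries. The glomerulus library of rat 3 also had the lowest summed value, 77457, against 165055 in that of rat 1 and at most 255518. The 2 glomerulus libraries therefore differ in the level of many miRNAs, and each glomerulus value is given per library. Markers matched the labels of proximal tubule and glomerulus. The proximal tubule list (3 of 4 measured) took 10.1% to 15.2% of the summed values there and at most 3.71% elsewhere. Nearly all of this was miR-192-5p, at 9.87% to 14.9%. In the limma fit described below, proximal tubule minus glomerulus was 4.40 ± 0.78 (SE, log2) for miR-194-5p. For miR-204-5p it was only 0.14 ± 0.85. The miR-126a pair of endothelium took 3.81% to 5.54% in the glomerulus and at most 1.48% elsewhere, and the pair miR-143-3p and miR-145-5p of mesangium and smooth muscle 9.93% to 13.4% and at most 4.40%. The miR-200 family of tubule and duct epithelium (4 of 5 measured) took 0.249% to 0.632% of the tubule and duct libraries and 0.047% to 0.078% of the glomerulus. The neuron list (1 of 2 measured, miR-9a-5p) was at a level of 50.3 to 69.3 in the collecting duct and at most 9.76 elsewhere. The source of this was not tested. None of the 4 red blood cell miRNAs listed is among the 188, and no list was at hand that marks thick ascending limb or collecting duct alone. In bulk captures like these, fewer cells of a type and less RNA per cell cannot be told apart.

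miR-22-3p was the miRNA next below miR-10a-5p by mean level in every segment. In the proximal tubule its level was 20926, 22602 and 34117 in rats 1, 2 and 3. In the glomerulus it was 21757 in rat 1 and 11218 in rat 3. Thick ascending limb libraries held 10450, 6786 and 12863, and collecting duct libraries 13650, 22836 and 17510. All proximal tubule libraries lay above all thick ascending limb libraries, and the glomerulus of rat 1 lay among the proximal tubule values while that of rat 3 lay among the thick ascending limb values. The mean was 25881 ± 7181 (SD, n = 3) for proximal tubule, 17999 ± 4612 (n = 3) for collecting duct, 16488 ± 7452 (n = 2) for glomerulus and 10033 ± 3060 (n = 3) for thick ascending limb. miR-192-5p, a proximal tubule marker, exceeded it in the proximal tubule of rats 1 and 2, where miR-22-3p ranked 3.

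miR-191a-5p was at 7199, 11786 and 10091 in proximal tubule, 5908 and 2693 in glomerulus (rats 1 and 3), 4891, 5688 and 5118 in thick ascending limb, and 4990, 9197 and 8825 in collecting duct. Every proximal tubule library was above every glomerulus and every thick ascending limb library, and the collecting duct overlapped with all of the others. Means were 9692 ± 2319 (SD, n = 3), 4301 ± 2273 (n = 2), 5232 ± 411 (n = 3) and 7671 ± 2329 (n = 3) in the same order. It ranked 7 and 9 in the glomerulus libraries.

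miR-26a-5p was at 7011, 8202 and 10564 in proximal tubule, 12322 and 4295 in glomerulus, 5205, 3777 and 6968 in thick ascending limb, and 8158, 10603 and 7458 in collecting duct. The glomerulus libraries spanned nearly the whole range, from the highest level of the 11 in rat 1 to the next to lowest in rat 3. The thick ascending limb lay below the proximal tubule and the collecting duct without overlap, though its rat 3 library, at 6968, fell only just below the lowest proximal tubule library, at 7011. Means were 8592 ± 1808 (SD, n = 3), 8308 ± 5676 (n = 2), 5317 ± 1598 (n = 3) and 8739 ± 1651 (n = 3). By mean level miR-26a-5p stood directly below miR-191a-5p in the proximal tubule and directly above it in the thick ascending limb and the collecting duct; in each of these the pair differed by less than the SD of miR-26a-5p.

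miR-26b-5p, of the same seed, was found at levels about 2 orders of magnitude lower. It was at 58.2, 58.1 and 116 in proximal tubule, 53.7 and 54.2 in glomerulus, 24.0, 23.6 and 62.2 in thick ascending limb, and 57.9, 62.8 and 11.4 in collecting duct. Rats 1 and 2 lay close together in all 3 tubule segments, and the library of rat 3 was the one apart: high in the proximal tubule and thick ascending limb and low in the collecting duct. Means were 77.5 ± 33.4 (SD, n = 3), 54.0 ± 0.363 (n = 2), 36.6 ± 22.1 (n = 3) and 44.0 ± 28.3 (n = 3). The collecting duct value of rat 3 rested on an estimated 35 reads (95% exact Poisson interval 24.4 to 48.7) and that of rat 1 on 238 (209 to 270), intervals that cover counting error only because PCR copies are not independent molecules.

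miR-26b-3p, the other arm of the same hairpin, was the lowest member. It was at 0, 5.60 and 8.50 in proximal tubule, 29.9 and 0 in glomerulus, 5.70, 3.69 and 1.52 in thick ascending limb, and 7.28, 10.4 and 8.28 in collecting duct. The collecting duct was the segment where the rats lay closest, and the glomerulus libraries held the highest value and 1 of the 2 values at 0. Means were 4.70 ± 4.32 (SD, n = 3), 15.0 ± 21.2 (n = 2), 3.64 ± 2.09 (n = 3) and 8.67 ± 1.61 (n = 3). In the glomerulus of rat 1 it had 149 estimated reads (126 to 175). In that of rat 3 it had 0 in all 4 runs, where an equal share of the reads would have given 27.3, and a floor of 3 reads in that library, a value of 1.57, puts rat 1 at least 19.1-fold higher. The proximal tubule library of rat 1 was also at 0 in all 4 runs, with a floor of 0.821.

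**Figure D1:**
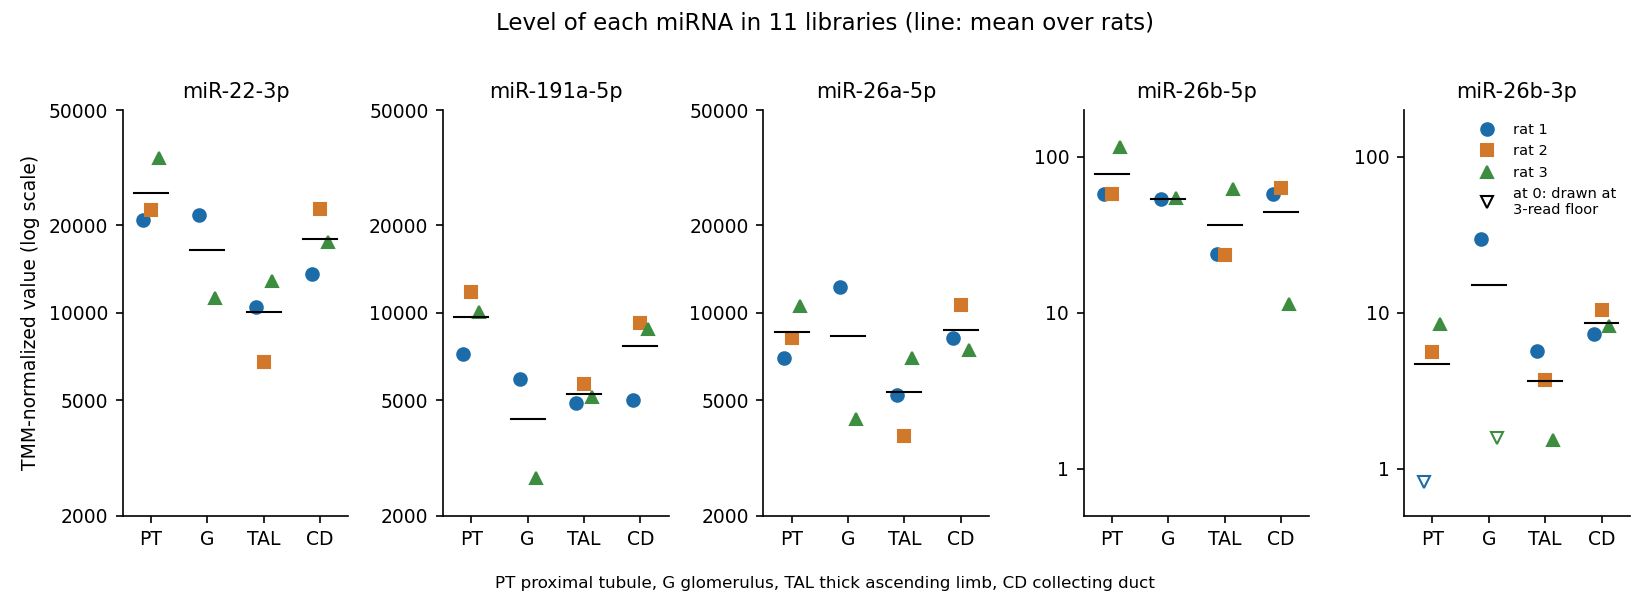
Normalized value (log axis) of each of the 5 miRNAs in the 11 libraries, by segment, with 1 symbol per rat and a line at the mean over rats; open triangles mark libraries at 0, drawn at their 3-read floor. miR-22-3p is between 6786 and 34117, miR-26b-5p between 11.4 and 116, and the glomerulus of rat 3 lies below that of rat 1 in all panels but that of miR-26b-5p.

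**Figure D2:**
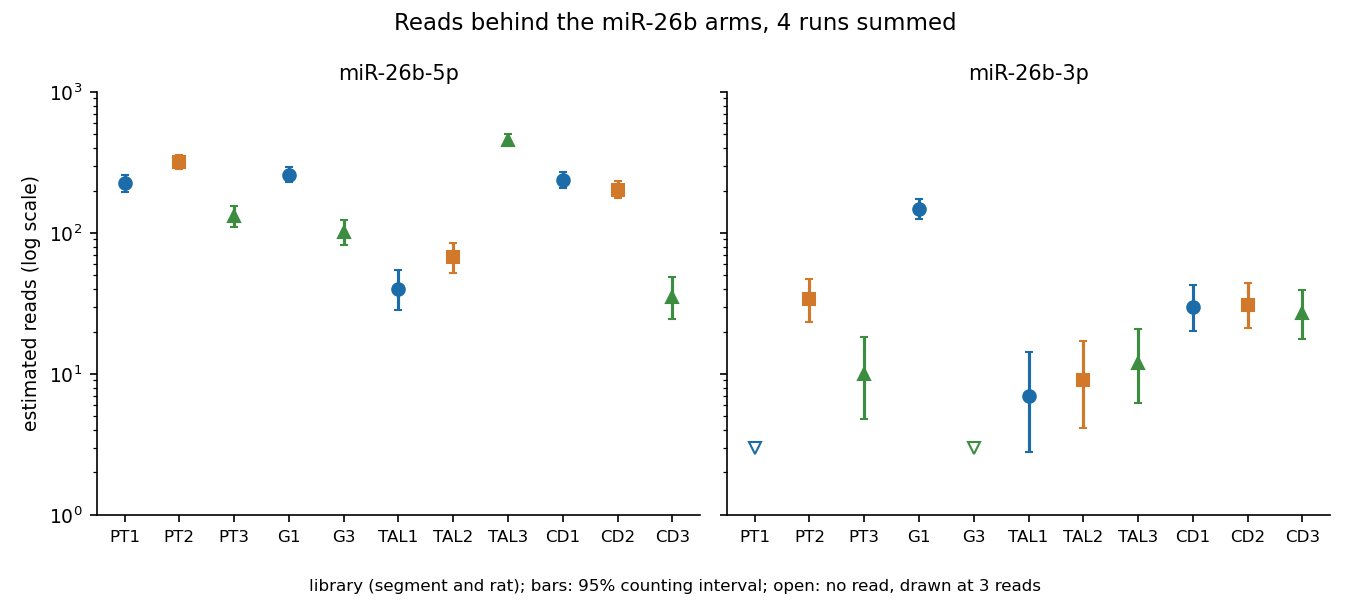
Estimated reads (log axis) behind the arms of miR-26b in each library, summed over 4 runs, with 95% counting intervals; open triangles stand for no read and are drawn at 3 reads. miR-26b-5p had between 35 and 458 reads, and miR-26b-3p had between 0 and 149, with the 149 in the glomerulus of rat 1.

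The number of members whose libraries did not overlap between segments was read beside the same count over all 188 miRNAs. Between proximal tubule and thick ascending limb it was 3 of 5, miR-22-3p, miR-191a-5p and miR-26a-5p, all higher in the proximal tubule, against 34.0% of all miRNAs in either direction. Between thick ascending limb and collecting duct it was 3 of 5, miR-22-3p, miR-26a-5p and miR-26b-3p, all lower in the thick ascending limb, against 29.3%. Between proximal tubule and glomerulus it was 2 of 5, miR-191a-5p and miR-26b-5p, both higher in the proximal tubule, against 41.5%; the fitted difference of miR-26b-5p there, 0.40 ± 0.79 (SE, log2), turned to −0.24 with every run set to the same total and to −0.26 with median-of-ratios scaling. It was 0 of 5 between proximal tubule and collecting duct (33.5% of all), between glomerulus and thick ascending limb (31.4%) and between glomerulus and collecting duct (37.2%). Since the members were chosen with these levels known, the counts describe the members and test nothing.

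In a limma fit of log2(value + 1) with segment and rat as terms, miR-22-3p was higher in the proximal tubule than in the thick ascending limb by 1.38 ± 0.47 (SE). The same difference was 0.86 ± 0.46 for miR-191a-5p, 0.71 ± 0.46 for miR-26a-5p and 1.15 ± 0.68 for miR-26b-5p, and miR-26b-3p was at −0.19 ± 1.05. The median of all 188 miRNAs was 0.37 between these segments. Against the collecting duct the thick ascending limb was at −0.86 ± 0.47 for miR-22-3p, −0.50 ± 0.46 for miR-191a-5p and −0.75 ± 0.46 for miR-26a-5p, with a median of −0.36 over all miRNAs. The sign of miR-191a-5p in this pair turned with scaling, to 0.04 with the same total in every run and 0.10 with that total counted without miR-10a-5p. Between proximal tubule and collecting duct the abundant members differed little as deposited: 0.52 ± 0.47, 0.36 ± 0.46 and −0.03 ± 0.46, in the order miR-22-3p, miR-191a-5p and miR-26a-5p. With the same total in every run these were 0.75, 0.59 and 0.20, and with that total counted without miR-10a-5p 0.25, 0.09 and −0.30. The median of all miRNAs was 0.16 as deposited, 0.37 with the same total and −0.08 without miR-10a-5p in it.

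Scaling moved these differences together with the median of all miRNAs. The proximal tubule minus thick ascending limb median was 0.37 as deposited, 0.07 with every run set to the same total, −0.08 with median-of-ratios scaling and −0.40 with the same total counted without miR-10a-5p. Over these settings miR-22-3p went from 1.38 to 1.07, 0.89 and 0.51. Relative to the median, miR-22-3p was higher by 1.01, 0.99, 0.97 and 0.91 in the proximal tubule under the same settings. Relative to the median miR-191a-5p was at 0.49, 0.48, 0.45 and 0.40, and miR-26a-5p at 0.34, 0.33, 0.30 and 0.25. On the unadjusted scale miR-191a-5p and miR-26a-5p turned to −0.01 and −0.16 when the total left out miR-10a-5p.

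**Figure D3:**
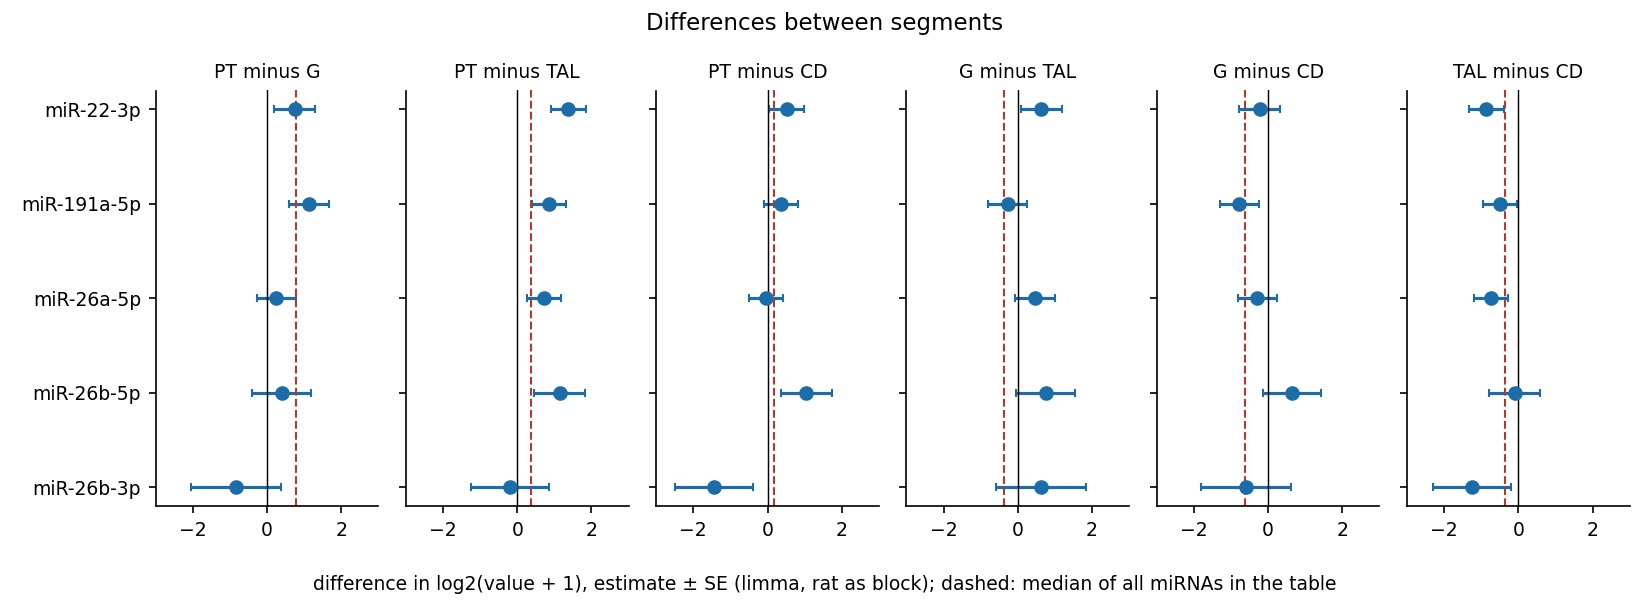
Difference in log2(value + 1) between the segments of each pair for the 5 miRNAs, as estimate ± SE from limma with the rat as a block; the dashed line is the median of all 188 miRNAs. miR-22-3p lies farthest from the dashed line among the 3 abundant members in proximal tubule minus thick ascending limb, at 1.38 against 0.37.

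The differences that involve the glomerulus depended on which glomerulus library was kept. For miR-26a-5p the proximal tubule minus glomerulus value was 0.26 ± 0.53 with both, 1.17 when the rat 1 library was left out and −0.66 when the rat 3 library was. For miR-22-3p it was 0.75 ± 0.55, 1.45 and 0.04, and for miR-191a-5p 1.13 ± 0.53, 1.93 and 0.33. Of the abundant members, miR-191a-5p and miR-22-3p kept their sign without either library, miR-22-3p only narrowly, and the median over all miRNAs was 0.77 with both. With the same total in every run miR-191a-5p was at 0.49, miR-22-3p at 0.10 and miR-26a-5p at −0.39, and that median was 0.24. For miR-26b-3p the values were −0.82 ± 1.21, 1.97 and −3.62.

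As a share of the summed value of a library, which does not depend on the scaling between libraries, the 5 members together took 23.6%, 24.5% and 26.0% in the proximal tubule and 24.3% and 23.5% in the glomerulus. Their share was 14.4%, 14.0% and 14.6% in thick ascending limb libraries and 14.6%, 16.7% and 18.1% in collecting duct libraries. The 3 abundant members made up at least 99.7% of this in every library. The means were 24.7% ± 1.23 (SD, n = 3), 23.9% ± 0.510 (n = 2), 14.3% ± 0.271 (n = 3) and 16.5% ± 1.74 (n = 3). Every proximal tubule and glomerulus library was above every thick ascending limb and collecting duct library.

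miR-10a-5p, from a Hox gene cluster, took 48.6% to 49.9% of the thick ascending limb and 43.7% to 50.5% of the collecting duct libraries, against 23.0% to 26.9% of the proximal tubule and 18.2% to 22.8% of the glomerulus. With miR-10a-5p left out of the total, the combined share was 33.0% ± 2.26 in proximal tubule, 30.1% ± 1.87 in glomerulus, 28.2% ± 0.901 in thick ascending limb and 31.0% ± 1.33 in collecting duct. The segment means thus ran from 14.3% to 24.7% with miR-10a-5p in the total and from 28.2% to 33.0% without it. The collecting duct then overlapped with both proximal tubule and glomerulus, and the glomerulus with the thick ascending limb.

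By member, miR-22-3p took 14.4% ± 1.63 (SD, n = 3) of the proximal tubule, 13.8% ± 0.922 (n = 2) of the glomerulus, 6.88% ± 0.894 (n = 3) of the thick ascending limb and 8.57% ± 1.02 (n = 3) of the collecting duct. Without miR-10a-5p in the total these were 19.3% ± 2.67, 17.4% ± 0.451, 13.6% ± 1.90 and 16.1% ± 0.993. The thick ascending limb libraries, 11.4% to 15.0%, then lay below all other libraries, by so little that the lowest of those, in the collecting duct, was also 15.0% after rounding. With miR-10a-5p in the total the thick ascending limb and the collecting duct overlapped. The order of the segment means for miR-22-3p was the same with either total.

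miR-191a-5p took 5.47% ± 1.14 (SD, n = 3), 3.52% ± 0.079 (n = 2), 3.76% ± 1.01 (n = 3) and 3.68% ± 1.00 (n = 3) in the order proximal tubule, glomerulus, thick ascending limb and collecting duct. Without miR-10a-5p in the total the glomerulus stood alone: its libraries were at 4.24% and 4.63%, and all 9 tubule and duct libraries lay between 5.48% and 9.54%. miR-26a-5p took 4.80% ± 0.178 (n = 3), 6.50% ± 1.37 (n = 2), 3.65% ± 0.406 (n = 3) and 4.19% ± 0.233 (n = 3), and the glomerulus libraries, at 5.53% and 7.46%, were above all others, which reached 5.01%. That separation was lost without miR-10a-5p in the total, where miR-26a-5p took 6.42% ± 0.391, 8.21% ± 2.05, 7.19% ± 0.895 and 7.94% ± 0.956 in the same order. White blood cell miRNAs (2 of 4 measured) took 0.071% to 0.102% of the glomerulus and at most 0.064% elsewhere. As a share they were thus highest in the same libraries as the endothelial and mesangial lists. By summed level the white blood cell list overlapped, at 78.7 to 116.6 in the glomerulus and 73.0 to 117.7 in the collecting duct. The part of these cells in the glomerular values was not tested.

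miR-26b-5p took 0.0424% ± 0.0116 (SD, n = 3) of the proximal tubule, 0.0515% ± 0.0269 (n = 2) of the glomerulus, 0.0244% ± 0.0104 (n = 3) of the thick ascending limb and 0.0207% ± 0.0131 (n = 3) of the collecting duct. miR-26b-3p took at most 0.0182% of a library, in the glomerulus of rat 1, and was steadiest in the collecting duct at 0.00416% ± 0.000255 (n = 3).

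Counted on shares, members not overlapping between segments were 4 of 5 for proximal tubule and collecting duct, namely miR-22-3p, miR-191a-5p, miR-26a-5p and miR-26b-5p, against 43.1% of all miRNAs. All 4 were higher in the proximal tubule, but without miR-10a-5p in the total this held for miR-22-3p alone: miR-191a-5p and miR-26b-5p overlapped, and miR-26a-5p turned lower in the proximal tubule, at 6.11% to 6.86% against 7.07% to 8.96%. For glomerulus and collecting duct they were 3 of 5, miR-22-3p, miR-26a-5p and miR-26b-5p, all higher in the glomerulus (44.1% of all), of which miR-22-3p alone did not overlap without miR-10a-5p in the total. miR-22-3p and miR-26a-5p were the 2 of 5 above the thick ascending limb, both in the proximal tubule (39.9%) and in the glomerulus (44.7%); without miR-10a-5p in the total miR-26a-5p overlapped in both pairs. For proximal tubule and glomerulus they were also 2 of 5 (48.9%). In that pair miR-191a-5p was higher and miR-26a-5p lower in the proximal tubule. No member was separated between thick ascending limb and collecting duct by share (23.4% of all), although 3 were by level. Without miR-10a-5p in the total, miR-26b-3p was also lower in the proximal tubule than in the collecting duct. It was at 0% to 0.0055% against 0.0077% to 0.0080%, from few estimated reads. No count over all miRNAs was made for that total, so its separations have no background beside them and nothing is read from their number.

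**Figure D4:**
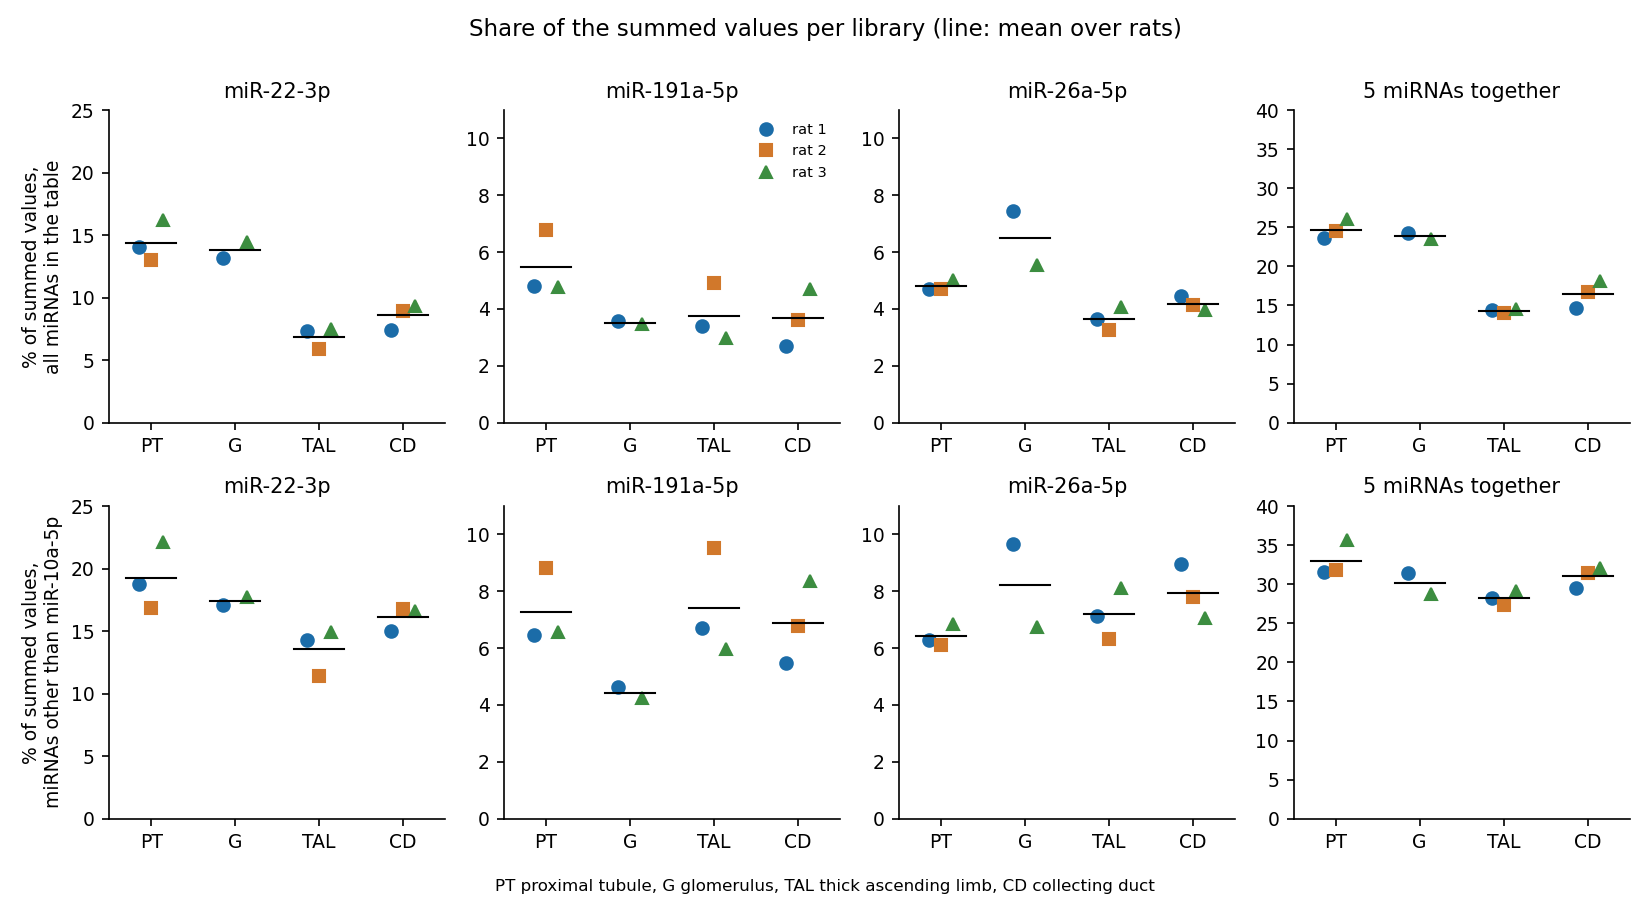
Share of the summed values per library for the 3 abundant miRNAs and for all 5 together, with 1 symbol per rat and a line at the mean over rats; the total holds all 188 miRNAs in the top row and leaves out miR-10a-5p in the bottom row. Together the 5 take 14.0% to 26.0% in the top row and 27.3% to 35.6% in the bottom row.

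Ratios within a library cannot be moved by scaling. The ratio of miR-22-3p to miR-26a-5p was between 2.76 and 3.23 in the proximal tubule and between 1.67 and 2.61 in the 8 other libraries, so all 3 proximal tubule libraries stood above the rest. The ratio of miR-22-3p to miR-191a-5p was 3.68 and 4.16 in the glomerulus and between 1.19 and 3.38 in the 9 other libraries. miR-191a-5p over miR-26a-5p was 0.479 and 0.627 in the glomerulus and between 0.612 and 1.51 elsewhere, so that here the glomerulus of rat 3 overlapped with the collecting duct of rat 1. These separations were noticed in the data and rest on 3 and 2 libraries. They are a description without a test. In every other setting of 1 segment against the rest, a ratio between 2 of the 3 abundant members overlapped.

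Within the shared miR-26 seed, miR-26a-5p exceeded miR-26b-5p in every library. The ratio was 120, 141 and 91.0 in proximal tubule, 229 and 79.2 in glomerulus, 217, 160 and 112 in thick ascending limb, and 141, 169 and 652 in collecting duct. As a difference of log2(value + 1), which lies slightly below the log2 of these ratios, it averaged 6.83 ± 0.31 (SD, n = 3), 7.05 ± 1.08 (n = 2), 7.25 ± 0.46 (n = 3) and 7.91 ± 1.15 (n = 3), and all segments overlapped, proximal tubule and collecting duct only just. miR-26b-5p made up between 0.153% and 1.25% of the pair. Efficiency of adapter ligation differs between small RNA sequences, so ratios between miRNAs within a library are not ratios of molecules, while the same ratio can be compared between libraries.

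The arms of miR-26b stood in no fixed ratio. miR-26b-5p over miR-26b-3p was 10.4 and 13.7 in the proximal tubule of rats 2 and 3 and at least 70.9 in that of rat 1, where the 3p arm was at 0. It was 1.79 in the glomerulus of rat 1 and at least 34.5 in that of rat 3. Thick ascending limb libraries gave 4.21, 6.40 and 40.9, and collecting duct libraries 7.94, 6.02 and 1.38. All proximal tubule libraries were above all collecting duct libraries, and the other segments overlapped with both. The gap, 10.4 against 7.94, was narrow and rested on few estimated reads of the 3p arm. These were 34 (counting interval 23.5 to 47.5) and 10 (4.80 to 18.4) in the proximal tubule of rats 2 and 3. The collecting duct of rat 1 had 30 (20.2 to 42.8). Intervals this wide leave the order of these ratios uncertain.

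Of the 6 partner miRNAs listed for the members, the other arms and the neighbours of miR-191a, 2 are among the 188: miR-425-5p and miR-191a-3p. miR-425-5p comes from the hairpin beside Mir191 and has a seed of its own.
miR-425-5p: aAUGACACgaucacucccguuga

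miR-425-5p was at 104, 104 and 133 in proximal tubule, 47.8 and 10.6 in glomerulus, 54.8, 34.1 and 33.5 in thick ascending limb, and 53.5, 45.9 and 17.2 in collecting duct. All proximal tubule libraries were above all of the others. By the limma F-test among segments with Benjamini-Hochberg adjustment over 188 miRNAs it did not pass (adjusted p = 0.0527), and over the alternatives its adjusted p ran from 0.000583 to 0.567. It passed with no replicate block for the rat (adjusted p = 0.0376), with a pseudocount of 10, under both rescalings, and without the glomerulus library of rat 1 (0.000583) or rat 3 (0.0135). The proximal tubule estimate was higher by 2.31 ± 0.79 than the glomerulus, 1.49 ± 0.68 than the thick ascending limb and 1.68 ± 0.68 than the collecting duct. The same F-test called 46 of 188 miRNAs (24.5%) and 0 of the 5 members, from which nothing is read because the choice of the members used these levels.

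miR-191a-5p and miR-425-5p, although from neighbouring hairpins of 1 host gene, did not keep a fixed ratio. It was 69.5, 113 and 76.1 in proximal tubule, 124 and 254 in glomerulus, 89.3, 167 and 153 in thick ascending limb, and 93.3, 200 and 514 in collecting duct. The ratios of 254 and 514 rested on 18 and 61 estimated reads of miR-425-5p. miR-191a-3p, the other arm of Mir191, was at 11.4, 9.42 and 1.44 in the proximal tubule, at 0 in both glomerulus libraries and at most 5.40 elsewhere, and did not pass the same limma test (adjusted p = 0.541). The 5p arm of Mir191 exceeded it at least 634-fold in every library, whereas the arm ratio of miR-26b went down to 1.38. That lowest ratio, in the collecting duct of rat 3, rested on few estimated reads with overlapping counting intervals. These were 35 (24.4 to 48.7) for the 5p arm and 27 (17.8 to 39.3) for the 3p arm.

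**Figure D5:**
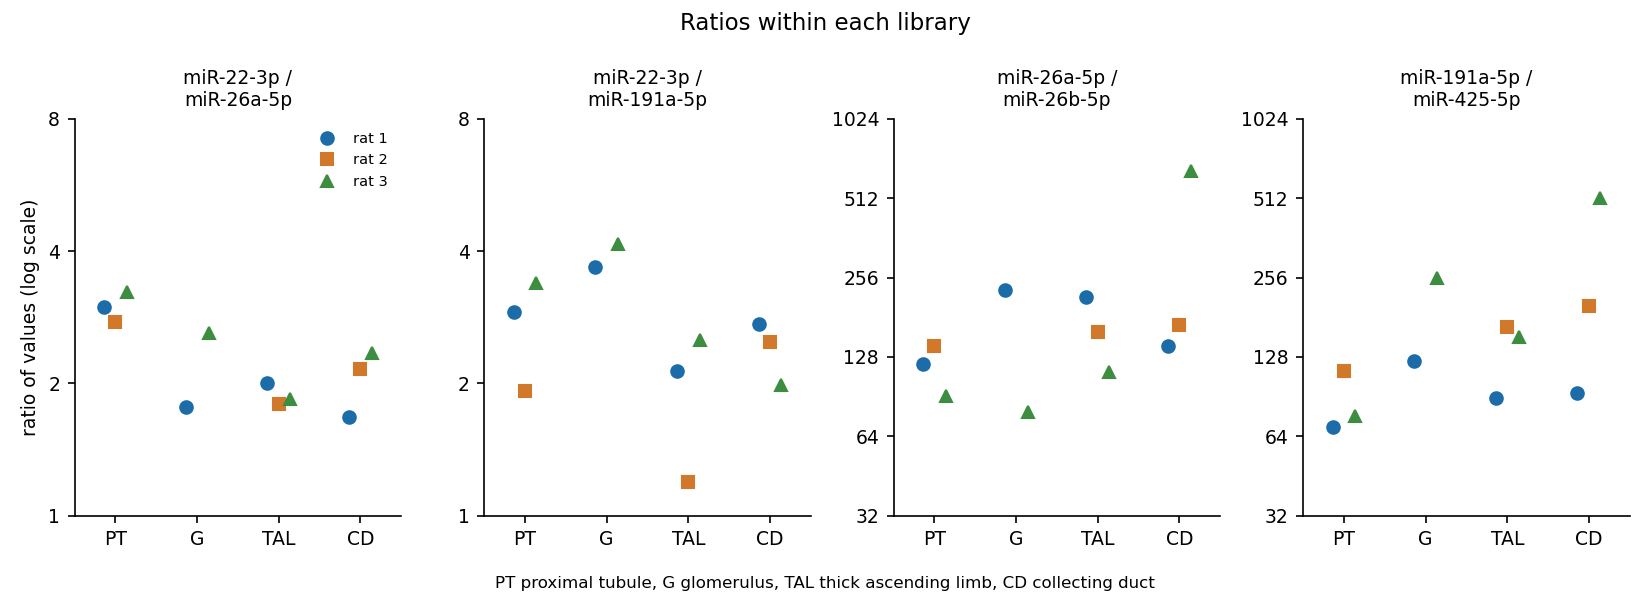
Ratios of values within each library on a log axis, by segment, with 1 symbol per rat. miR-22-3p over miR-26a-5p is at 2.76 or above in the proximal tubule only, miR-22-3p over miR-191a-5p is highest in the glomerulus at 3.68 and 4.16, and the collecting duct of rat 3 is the highest point for miR-26a-5p over miR-26b-5p (652) and miR-191a-5p over miR-425-5p (514).

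The choice of the members did not use differences between rats, so these were tested. In the limma F-test of the rat terms, 0 of 188 miRNAs (0%) differed at an adjusted p below 0.05, and 8 did at an unadjusted p below 0.05, none of them a member. For the members the adjusted p was between 0.992 and 0.996 in limma with Benjamini-Hochberg adjustment. Rat 2 minus rat 1 was −0.10 ± 0.46 (SE, log2) for miR-22-3p, 0.40 ± 0.44 for miR-191a-5p and −0.18 ± 0.45 for miR-26a-5p. Rat 3 minus rat 1 was 0.10 ± 0.41, 0.06 ± 0.40 and −0.16 ± 0.40 in the same order, 0.04 ± 0.59 for miR-26b-5p and −0.75 ± 0.91 for miR-26b-3p. A rat term is common to all segments. The test therefore cannot see a rat that is high in some segments and low in another, as rat 3 was for miR-26b-5p. It also takes the uncertain rat label of the glomerulus library called rat 3 as given. The errors of the abundant members were 0.40 to 0.46 on the log2 scale. Differences between rats of about that size, and ones somewhat larger, could not be detected for them. The median coefficient of variation over the 4 runs of a library was 5.56% for miR-22-3p, 7.39% for miR-191a-5p, 9.80% for miR-26a-5p, 16.6% for miR-26b-5p and 41.9% for miR-26b-3p.

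The members' profiles over the 11 libraries were compared with those of other miRNAs with a mean of at least 100, by Pearson r of log2(value + 1), as a description. These profiles share library scaling: the median r of a member with the other miRNAs was 0.498 for miR-22-3p, 0.626 for miR-191a-5p, 0.574 for miR-26a-5p, 0.171 for miR-26b-5p and 0.387 for miR-26b-3p. The most alike were miR-181b-5p (r = 0.913), let-7d-3p (0.909) and miR-3586-3p (0.901) for miR-22-3p. For miR-191a-5p they were let-7b-5p (r = 0.923), miR-103-3p (0.894) and miR-107-3p (0.878). For miR-26a-5p they were let-7d-5p (r = 0.912), let-7i-5p (0.894) and miR-3596a (0.847). miR-3596a had the same fitted values as let-7a-5p in every contrast, so it is not a profile apart from let-7a-5p. miR-26b-5p had no profile as close, its highest being miR-30d-5p (r = 0.712), and miR-26b-3p had miR-25-3p (r = 0.816).

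Among the members, the level of miR-22-3p followed that of miR-26a-5p (r = 0.867 over 11 libraries) more closely than that of miR-191a-5p (r = 0.687). The seed partners miR-26a-5p and miR-26b-5p had r = 0.465, and the arms of miR-26b r = −0.08. The r of a member with the summed value of the library, which all levels share, was 0.659 for miR-22-3p, 0.775 for miR-191a-5p and 0.808 for miR-26a-5p, and 0.203 for miR-26b-5p.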

How the data were processed

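The deposited table holds a signal per miRNA and run: TMM-normalized counts with low counts filtered out by the authors, per the file's name. The submitters' processing notes name Bowtie 1.0.0, Bowtie2 2.2.5, Partek 6.0 and build rn6; sequences and positions here are of GRCr8. Values were used as deposited: 188 miRNAs, 44 runs, averaged over 4 runs so that n counts rats. Some names had identical fitted values, such as miR-3596a and let-7a-5p, or miR-3574 and miR-210-3p. Each name was counted by itself among the 188 and in all counts and percentages. A step of 1 read per run was estimated from the low values, as the largest that left most of them whole. Of values at or under 30 reads, 88.3% to 99.0% then lay within 0.03 of a whole number. Because the step was chosen for this, the share does not test it. Reads are therefore estimates, and no count test was run. Floors are 3 reads per library.

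limma 3.58.1 in R 4.3.3 fitted log2(value + 1) on segment and rat over 11 libraries, with a variance trend, two-sided tests and Benjamini-Hochberg adjustment over 188 miRNAs at 0.05, and was tested on simulated data. The scale understates changes of low miRNAs. The fit has 5 residual degrees of freedom and, by its estimate, a variance set by abundance alone. The rat is a replicate block because same-numbered libraries come, as labelled, from the same animal; deviations from segment means had a median correlation of 0.08 within rats (15 pairs) and −0.07 between rats (30 pairs). Named are the members, their listed partners, the 3 most alike miRNAs per member (the leading 1 for the miR-26b arms), neighbours in rank and leading miRNAs. Members and lists were chosen with earlier results of these data known. Alternatives were other pseudocounts, scalings, filters, flow cells, totals and each library left out.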

Additional observations from a re-analysis of the deposited data

How the results depend on the processing

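The number of miRNAs differing among segments by limma was 46, and it was 56 with no replicate block, 70 with the same total in every run, 26 with only miRNAs of a mean of at least 100 (fewer tested) and 28 on flow cell D alone. It ranged from 33 to 85 with 1 library left out, reaching 85 without the rat 1 glomerulus and 70 without the rat 3 glomerulus. The number differing among rats was 0, and 1 with a pseudocount of 10; it ranged from 0 to 2 with 1 library left out, with 2 without either glomerulus library. The combined share was 33.0%, 30.1%, 28.2% and 31.0% in proximal tubule, glomerulus, thick ascending limb and collecting duct without miR-10a-5p in the total, and 23.0% in the glomerulus and 13.9% in the thick ascending limb on flow cell D alone. Proximal tubule minus thick ascending limb turned to −0.0092 for miR-191a-5p and −0.16 for miR-26a-5p with the same total without miR-10a-5p. Proximal tubule minus glomerulus of miR-26b-5p, 0.40, turned to −0.24 with the same total, −0.26 by median of ratios, and −0.14 with the same total without miR-10a-5p; with 1 library left out it ranged from −0.14 (without the rat 3 proximal tubule) to 0.65. The cause of these changes was not tested. Of the pairwise differences of the members under alternatives, 508 moved by less than the pooled SD between rats of the 2 segments and 56 by more. A further 6, all of pairs whose libraries did not overlap in level, turned sign. Sign turns of overlapping pairs were not counted apart and lie among the 508 and 56. Part of the 508 could not have moved. A difference between segments sampled in all rats stays the same without the rat block or without a library of another segment. The 508 is thus no measure of stability. All 115 within-library ratios moved by less than the SD between rats. For ratios with 1 library left out this had to be so, because the SD is that of the same 2 or 3 libraries. Depth limits miR-26b-3p, which had between 0 and 149 estimated reads.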
